A study of Mus with 21 samples.

Results

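The metabotropic glutamate receptors are G protein-coupled receptors that sense glutamate at and around synapses. Group I receptors, such as the product of *Grm5*, couple to Gq proteins, which activate phospholipase C and release calcium from internal stores. The group II receptors (*Grm2* and *Grm3*) and the group III receptors (*Grm4*, *Grm6*, *Grm7* and *Grm8*) couple to Gi/o proteins, which restrain adenylyl cyclase, and many of them sit on presynaptic terminals, where they limit transmitter release. *Grm3* and *Grm5* are also well known in astrocytes, the glial cells that take up glutamate. Described here are the 6 genes *Grm2*, *Grm3*, *Grm4*, *Grm5*, *Grm7* and *Grm8*, chosen by name from the 55335 genes of the deposited table, and all 6 were among the 30552 genes abundant enough to be tested.

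The study asked whether a lower dose of *Wapl*, whose product releases cohesin from chromosomes, alters the expression changes caused by loss of 1 copy of *Nipbl*, whose product loads cohesin. Poly(A) RNA was sequenced from the whole brains of female mouse embryos at E17.5, which were WT (*Wapl*+/+ *Nipbl*+/+, n = 5), *Wapl*Δ/+ (*Nipbl*+/+, n = 7), *Nipbl*+/- (*Wapl*+/+, n = 3) or doubly heterozygous (*Wapl*Δ/+ *Nipbl*+/-, n = 6). The *Wapl*Δ allele lacks the promoter and exons 1 and 2 and was made with *E2a-Cre*, and the *Nipbl* deletion was made in the male germ line with *Stra8-icre*, so that each mutant embryo was expected to carry its deletion in every cell. The mutants were heterozygotes, and no group without either protein was measured. All tissue was bulk whole brain, in which fewer cells of a type and less RNA per cell cannot be told apart.

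Between 25682566 and 35818767 reads were counted on genes in each library (median 31830396). *Nipbl* stood at 54.3% of the WT mean in *Nipbl*+/- brains and at 54.8% in double heterozygotes, and *Wapl* at 46.7% in *Wapl*Δ/+ brains and at 49.3% in double heterozygotes, with every mutant library below every WT library. The neuronal, astrocyte and progenitor markers that were checked (10, 10 and 11 genes) had reads in every library. The mitochondrial gene *mt-Nd3* divided the libraries into a set of 9 with 52 to 106 counts and a set of 12 with 0 to 6 counts, and all 3 *Nipbl*+/- libraries fell in the low set. Among mutants carrying *Wapl*Δ, the low set held the libraries whose labels write the deleted allele first, 2 in *Wapl*Δ/+ and 4 in double heterozygotes, so these 2 properties cannot be told apart. Values within the sets are given beside the results they bear on.

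Each receptor gene was placed on the mouse assembly GRCm38 by its RefSeq gene model. *Grm5* spans chr7:87583981-88135063 (551 kb), *Grm2* chr9:106644534-106656109 (11.6 kb), *Grm3* chr5:9485236-9725352 (240 kb), *Grm4* chr17:27422387-27513826 (91.4 kb), *Grm7* chr6:110645349-111567230 (922 kb) and *Grm8* chr6:27275121-28135146 (860 kb). The genes differed widely in genomic span. *Grm7*, *Grm8* and *Grm5* were longer than 99.7%, 99.6% and 99.2% of the 24076 tested genes with a known span, *Grm3* was longer than 96.7% and *Grm4* than 88.3%, whereas *Grm2* was longer than 43.0%. The lncRNA *Gm20387* overlaps the start of *Grm7*, with a mean of 67.8 normalized counts against group means of 980 to 1172 for *Grm7*, and the strand setting of the counting is not given in the sources used here. Levels below are normalized read counts, scaled to the mean library, and since exon lengths were not used here they are compared between genotypes and not between genes.

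**Figure D1:**
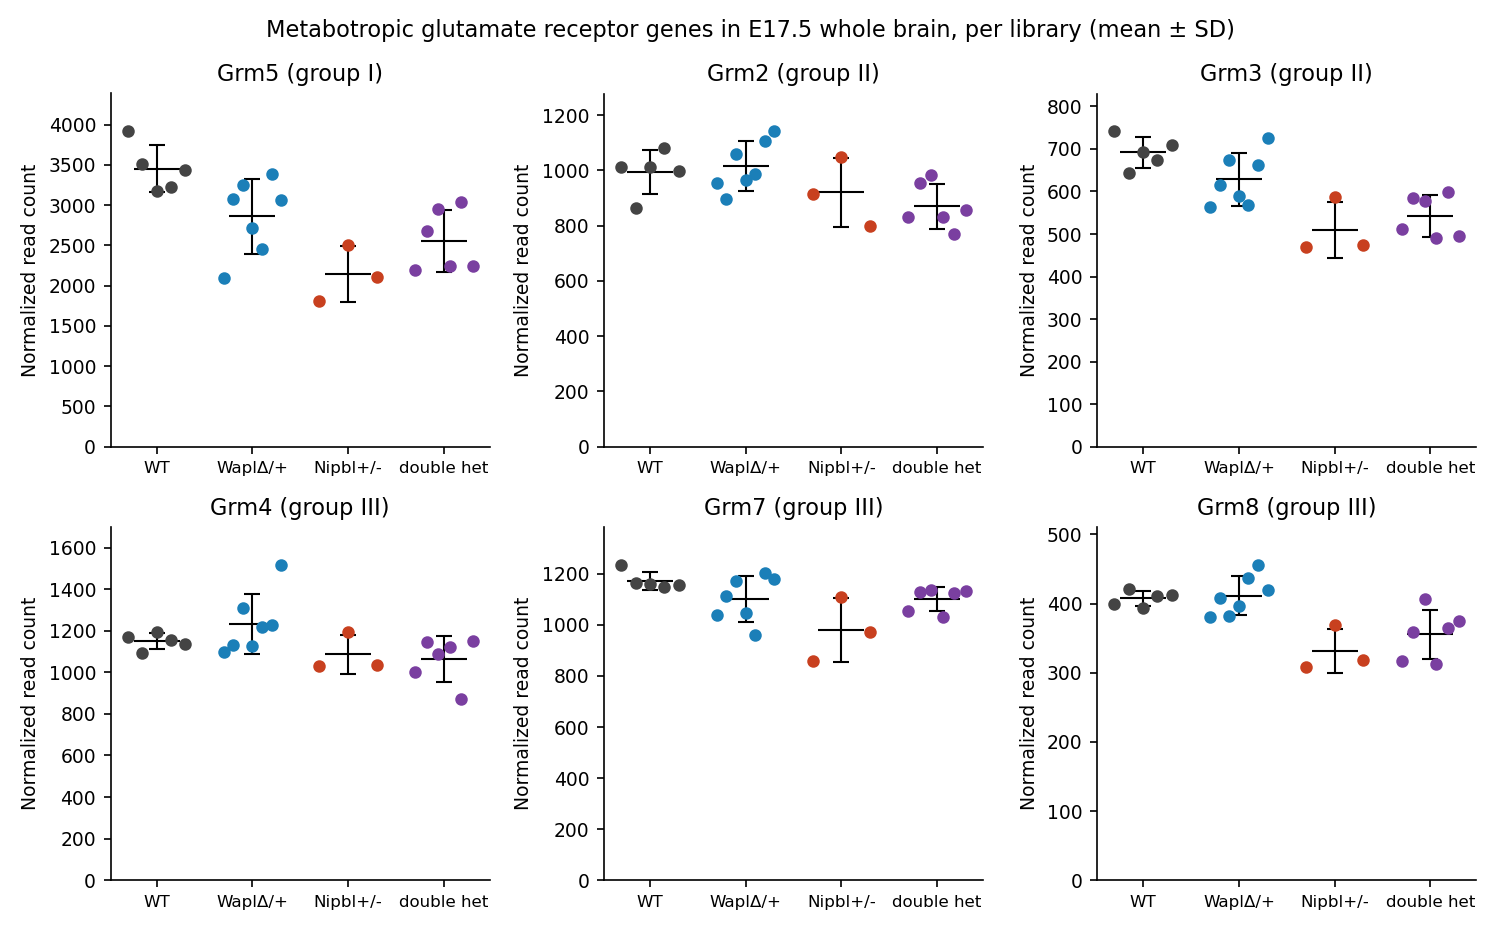
Normalized read counts (y axis) of the 6 receptor genes in each of the 21 libraries (points), by genotype (x axis), with the mean and SD of each group (black). *Grm5* and *Grm3* of all *Nipbl*+/- and double-heterozygote libraries lie below the lowest WT library, while *Grm2* and *Grm4* of the mutants overlap WT.

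Loss of 1 *Nipbl* copy was accompanied by lower levels of 4 of the 6 receptor genes. *Grm5* fell to 62.0% of the WT mean, *Grm3* to 73.7%, *Grm8* to 81.4% and *Grm7* to 83.6%, and each of these passed the test against WT. *Grm2* stood at 92.6% and *Grm4* at 94.5%, and neither passed. The 4 genes that fell were also the 4 with the longest genomic spans of the 6. Among these 4, however, *Grm7* had the longest span and the smallest fall, and a link of level with span was not tested. Here and below, a call means an adjusted p below 0.10 in edgeR, whose quasi-likelihood model was fitted to the libraries of the groups compared, with the adjustment made over all tested genes. The comparisons with WT share the same 5 WT libraries. Of all tested genes 6.96% were called lower in this comparison, and the share was 12.4% among genes averaging 100 or more normalized counts, as all 6 receptor genes do.

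*Grm5*, the group I receptor of the 6, had 3917, 3509, 3181, 3221 and 3436 normalized counts in WT replicates 1 to 5 and 1808, 2501 and 2113 in *Nipbl*+/- replicates 1 to 3. All 3 mutant libraries lay well below the WT range, and WT replicate 1 was the highest library of all. The means were 3453 ± 294 (SD, n = 5) and 2141 ± 347 (SD, n = 3), and the log2 fold change was -0.69 (standard error 0.0796, edgeR adjusted p = 7.3e-05).

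Within group II the 2 genes differed. *Grm3*, whose product is found on astrocytes as well as neurons, had 741, 644, 693, 675 and 709 normalized counts in WT and 470, 586 and 475 in *Nipbl*+/- brains. No *Nipbl*+/- library reached the lowest WT library, and the log2 fold change was -0.45 (standard error 0.0706, edgeR adjusted p = 0.000786). *Grm2*, a mainly presynaptic autoreceptor, had 1012, 865, 1014, 1081 and 999 normalized counts in WT and 914, 1050 and 798 in *Nipbl*+/- brains. These groups overlapped, with *Nipbl*+/- replicate 2 above the WT mean, and the log2 fold change was -0.12 (95% interval -0.27 to 0.04, edgeR adjusted p = 0.44).

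Of the group III genes, which encode presynaptic receptors, *Grm8* and *Grm7* fell. *Grm8* had 400, 421, 394, 411 and 413 normalized counts in WT and 308, 368 and 319 in *Nipbl*+/- brains (log2 fold change -0.30, standard error 0.0712, edgeR adjusted p = 0.0132). *Grm7*, whose product marks the active zone of many terminals, had 1235, 1163, 1159, 1147 and 1157 in WT and 860, 1110 and 971 in *Nipbl*+/- brains (log2 fold change -0.26, standard error 0.0627, edgeR adjusted p = 0.0137). In both genes the highest *Nipbl*+/- library, replicate 2, still lay below the lowest WT library. *Grm4*, prominent in cerebellar granule cells, had 1169, 1093, 1193, 1155 and 1139 in WT and 1029, 1196 and 1034 in *Nipbl*+/- brains. For *Grm4*, replicate 2 narrowly exceeded every WT library while replicates 1 and 3 lay below all of them, and the log2 fold change was -0.09 (95% interval -0.20 to 0.02, edgeR adjusted p = 0.403).

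*Nipbl*+/- replicate 2 was the highest of its group for each of the 6 genes. Without it all 6 genes were called, *Grm2* with a log2 fold change of -0.22 (edgeR adjusted p = 0.0463) and *Grm4* with -0.17 (edgeR adjusted p = 0.0294). That fit called more genes in general, 4788 of 30552 in either direction, against 3422 with all 8 libraries. Without replicate 3, by contrast, *Grm2* stood at -0.01 (edgeR adjusted p = 0.96) and *Grm4* at -0.04 (edgeR adjusted p = 0.792). Without replicate 1, *Grm7* stood at -0.17 (edgeR adjusted p = 0.0993). The 4 called genes were also those in which every *Nipbl*+/- library lay below every WT library, a pattern that 6.9% of all tested genes showed. Within the low *mt-Nd3* set, which holds 3 WT and all 3 *Nipbl*+/- libraries, the log2 fold changes were -0.73 for *Grm5*, -0.45 for *Grm3*, -0.29 for *Grm8* and -0.28 for *Grm7*, with edgeR adjusted p of 0.00167, 0.0122, 0.0869 and 0.0607.

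*Grm6*, a further group III gene known from the retina, was barely detected, with mean normalized counts between 1.82 and 2.99 in the 4 groups.

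**Figure D2:**
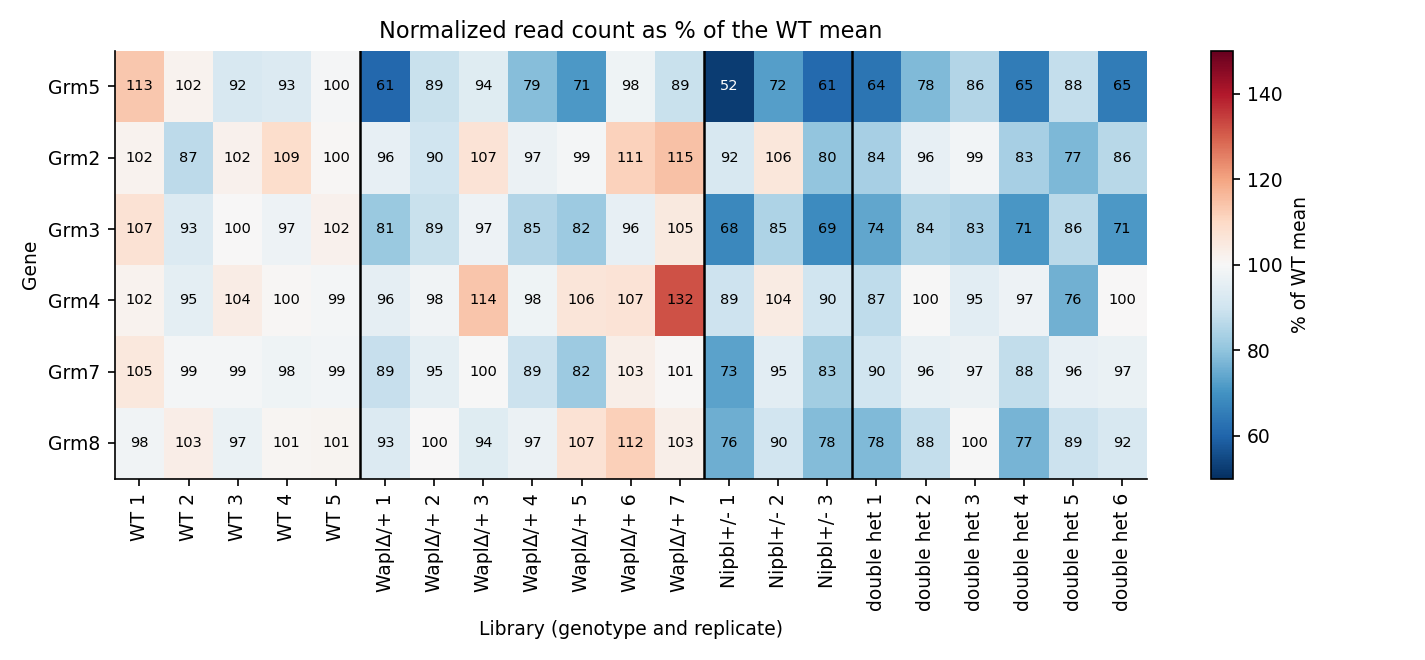
Normalized read count of each receptor gene (rows) in each library (columns) as a percentage of the WT mean, printed in each cell and coloured from blue (below 100%) to red (above 100%), with black lines between genotypes. *Grm5* ranges from 52.4% in *Nipbl*+/- replicate 1 to 113% in WT replicate 1, and in double heterozygotes from 63.6% to 88.0%.

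Loss of 1 *Wapl* copy left all 6 receptor genes short of the threshold. *Grm5* stood at 82.9% of the WT mean and *Grm3* at 90.7%, and *Grm7*, *Grm8*, *Grm2* and *Grm4* stood at 94.0%, 101%, 102% and 107%. edgeR called 0 of the 6, where 1.45% of all tested genes and 2.29% of those averaging 100 or more counts were called lower. Before adjustment, p was below 0.05 for *Grm5* and *Grm3* (2 of the 6) and for 4780 of all tested genes, and DESeq2 also called 0 of the 6. No receptor gene had every *Wapl*Δ/+ library below every WT library, as 0.471% of all tested genes did.

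*Grm5* varied more between *Wapl*Δ/+ embryos than between WT embryos. Its 7 values ran from 2092 to 3384 normalized counts with a median of 3066, with replicates 1 and 5 (60.6% and 71.1% of the WT mean) the lowest and replicate 6 (98.0%) the highest. The mean was 2863 ± 463 (SD, n = 7), and the log2 fold change against WT was -0.27 (95% interval -0.44 to -0.09, edgeR adjusted p = 0.136). Leaving out *Wapl*Δ/+ replicate 2, 3 or 6 brought the edgeR adjusted p to 0.0886, 0.0935 or 0.0721, whereas without replicate 1 the log2 fold change of *Grm5* was -0.20 (edgeR adjusted p = 0.168).

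*Grm3* ran from 563 to 727 (median 615), again with replicates 1 and 5 lowest, and its log2 fold change was -0.14 (95% interval -0.26 to -0.01, edgeR adjusted p = 0.267). *Grm7* ran from 959 to 1205 (median 1114) with replicate 5 lowest (log2 fold change -0.08, edgeR adjusted p = 0.418). All 3 genes overlapped the WT range. Against the WT libraries, the 2 *Wapl*Δ/+ libraries labelled with the deletion first gave log2 fold changes of -0.42 for *Grm5* and -0.23 for *Grm3*, with edgeR adjusted p of 0.0472 and 0.0853. Within the low *mt-Nd3* set alone *Grm5* stood at -0.45 (edgeR adjusted p = 0.231) and within the high set at -0.16 (edgeR adjusted p = 0.708), and *Grm3* at -0.23 and -0.10 (edgeR adjusted p = 0.303 and 0.816).

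*Grm2*, *Grm4* and *Grm8* lay close to WT in *Wapl*Δ/+ brains. *Grm2* ran from 897 to 1142 normalized counts (median 986), *Grm4* from 1100 to 1517 (median 1220) and *Grm8* from 380 to 456 (median 408). *Grm4* was highest in replicate 7, at 132% of the WT mean, the highest value of any gene and library relative to WT. The log2 fold changes were 0.03 for *Grm2* (95% interval -0.09 to 0.16), 0.10 for *Grm4* (95% interval -0.03 to 0.23) and 0.02 for *Grm8* (95% interval -0.09 to 0.13), with edgeR adjusted p of 0.832, 0.441 and 0.92. Their signs turned negative in the low *mt-Nd3* set alone (-0.06, -0.04 and -0.03).

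In double heterozygotes 2 of the 6 genes were lower than in WT. *Grm5* fell to 74.1% of the WT mean and *Grm3* to 78.4%, and both passed the test. *Grm8*, *Grm2*, *Grm4* and *Grm7* stood at 87.2%, 87.5%, 92.6% and 93.9%, and none of these passed. Of all tested genes 2.46% were called lower, and 4.61% of those averaging 100 or more counts. In *Grm3*, *Grm5* and *Grm7* every double-heterozygote library lay below every WT library, as in 2.29% of all tested genes.

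*Grm5* had 2195, 2685, 2952, 2243, 3038 and 2240 normalized counts in double-heterozygote replicates 1 to 6. Replicates 1, 4 and 6 stood between 63.6% and 65.0% of the WT mean, within the range of the *Nipbl*+/- libraries, and replicates 2, 3 and 5 stood between 77.8% and 88.0%. The mean was 2559 ± 383 (SD, n = 6), and the log2 fold change against WT was -0.42 (standard error 0.0812, edgeR adjusted p = 0.00981). *Grm3* had 512, 585, 578, 490, 598 and 494, with the same 3 replicates above 80% of the WT mean. Its log2 fold change was -0.34 (standard error 0.0604, edgeR adjusted p = 0.00546).

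*Grm7* varied little among double heterozygotes, from 1029 to 1136 normalized counts (median 1127). All 6 libraries, at 87.8% to 96.9% of the WT mean, lay below the lowest WT library at 97.8%. The fitted log2 fold change was, however, -0.08 (95% interval -0.16 to 0.00373, edgeR adjusted p = 0.4). *Grm8* ran from 313 to 406 (median 362), with replicate 3 (99.6% of the WT mean) in the WT range and the other 5 below the WT range, and its log2 fold change was -0.19 (95% interval -0.32 to -0.05, edgeR adjusted p = 0.185). *Grm2* ran from 770 to 982 (median 844) and *Grm4* from 873 to 1153 (median 1105), both lowest in replicate 5. Their log2 fold changes were -0.18 and -0.10 (edgeR adjusted p = 0.161 and 0.45).

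Double-heterozygote replicate 3 mattered to the calls of *Grm2* and *Grm8*. Without it 4 of the 6 genes were called, *Grm2* with a log2 fold change of -0.23 (edgeR adjusted p = 0.041) and *Grm8* with -0.23 (edgeR adjusted p = 0.0485) besides *Grm3* and *Grm5*. That fit called more genes in general, 1687 of 30552 in either direction, against 1001 with all 11 libraries. *Grm2* was also called without WT replicate 2 (-0.23, edgeR adjusted p = 0.0698). *Grm5* and *Grm3* stayed below the threshold whichever of the 11 libraries was left out. Within the low *mt-Nd3* set they stood at -0.48 and -0.35 (edgeR adjusted p = 0.00786 and 0.0189), and within the high set, of 2 WT and 2 double-heterozygote libraries, at -0.32 each (edgeR adjusted p = 0.814 each). *Grm2* stood at -0.09 in the low and -0.34 in the high set, *Grm4* at -0.07 and -0.17, *Grm7* at -0.12 and -0.01 and *Grm8* at -0.20 and -0.14, none of them called.

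**Figure D3:**
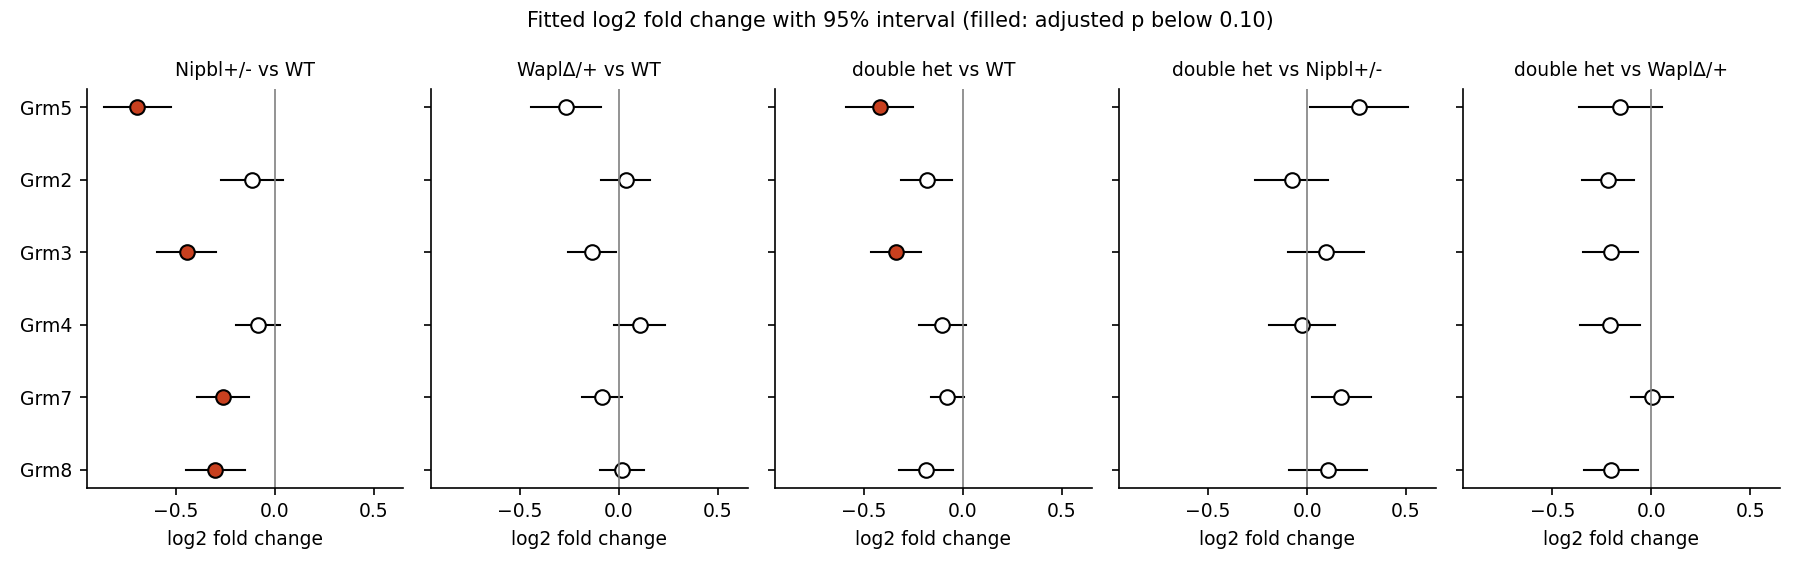
Log2 fold change (x axis) of each receptor gene (rows) in the 5 pairwise comparisons (panels), with its 95% interval from edgeR's quasi-likelihood fit. Filled points passed an adjusted p of 0.10 over all tested genes, 4 in *Nipbl*+/- and 2 in double heterozygotes, both against WT.

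The comparison of double heterozygotes with *Nipbl*+/- brains asks what loss of a *Wapl* copy does where *Nipbl* is already halved. *Grm5* and *Grm7* had the largest positive differences, with fitted levels 1.2 and 1.13 times those of *Nipbl*+/- brains, and 0 of the 6 genes passed. Of all tested genes 0.00655% were called in either direction in this comparison of 6 and 3 libraries. Before adjustment, p was below 0.05 for *Grm5* and *Grm7* (2 of the 6) and for 1259 of all tested genes, and DESeq2 called 0 of the 6.

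For *Grm5* the log2 difference was 0.26 (95% interval 0.02 to 0.51, edgeR adjusted p = 0.971), and 3 of 6 double-heterozygote libraries exceeded the highest *Nipbl*+/- library. For *Grm7* it was 0.17 (95% interval 0.02 to 0.32, edgeR adjusted p = 0.971), and 4 of 6 libraries did so. The group mean of *Grm7* thus lay 62.9% of the way from the *Nipbl*+/- mean to the WT mean, and that of *Grm5* lay 31.9% of the way. *Grm8* and *Grm3* lay 31.5% and 17.8% of the way, with log2 differences of 0.11 (95% interval -0.09 to 0.30) and 0.09 (95% interval -0.10 to 0.29). All 4 of these genes had been called lower in *Nipbl*+/- brains, so a low *Nipbl*+/- mean was part of how they were picked out. These positions rest on the same WT and *Nipbl*+/- libraries as the comparison above and carry no error of their own. They also depended on single *Nipbl*+/- libraries. Without replicate 1 the log2 differences were 0.15 for *Grm5*, 0.08 for *Grm7*, 0.05 for *Grm8* and 0.03 for *Grm3*, and without replicate 2 they were 0.39, 0.28, 0.19 and 0.21, with 0 of these called in edgeR. Within the low *mt-Nd3* set, which holds 4 double-heterozygote and all *Nipbl*+/- libraries, they were 0.23, 0.15, 0.07 and 0.08. *Grm2* and *Grm4* differed from *Nipbl*+/- by -0.08 (95% interval -0.26 to 0.10) and -0.03 (95% interval -0.19 to 0.14). On the same measure their means lay at -68.0% and -34.3%, further from WT than the *Nipbl*+/- means, though neither gene was called in *Nipbl*+/- brains.

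Against *Wapl*Δ/+ brains, the fitted level in double heterozygotes was lower for 5 of the 6 genes and nearly equal for *Grm7*, and edgeR called 0 of the 6 where 0.812% of all tested genes were called lower. The log2 differences were -0.22 for *Grm2*, -0.21 for *Grm4*, -0.21 for *Grm3*, -0.20 for *Grm8*, -0.16 for *Grm5* and 0.00437 for *Grm7*. *Grm2* had the smallest adjusted p of the 6 (0.162 in edgeR), and DESeq2 called it alone. Unadjusted p lay below 0.05 for *Grm2*, *Grm3*, *Grm4* and *Grm8* (4 of the 6) and for 3037 of all tested genes. Leaving out *Wapl*Δ/+ replicate 2 or double-heterozygote replicate 3 brought *Grm2* to an edgeR adjusted p of 0.0731 or 0.0849, and leaving out double-heterozygote replicate 5 brought it to 0.223. The differences of *Grm2*, *Grm4*, *Grm5* and *Grm3* varied with the *mt-Nd3* set. In the low set they were -0.04, -0.03, -0.03 and -0.12, and in the high set -0.37, -0.34, -0.17 and -0.23, none of them called, while *Grm8* stood at -0.17 in each set. The difference between the sets was not tested. *Grm7* was at the same level in the 2 groups (95% interval of the difference -0.10 to 0.11), and its sign turned when any of 7 of the 13 libraries was left out.

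Whether the effect of the *Nipbl* deletion differed between brains with 2 and with 1 copies of *Wapl* was tested with the interaction of the genotypes in all 21 libraries. *Grm5* had an interaction of 0.50 on the log2 scale (95% interval 0.18 to 0.82, edgeR adjusted p = 0.2), *Grm7* of 0.23 (95% interval 0.06 to 0.41, adjusted p = 0.232) and *Grm3* of 0.20 (95% interval -0.02 to 0.42, adjusted p = 0.412). A positive value means that the double heterozygotes were higher than the sum of the single changes. edgeR called 0 of the 6 genes and 0% of all tested genes, and the unadjusted p lay below 0.05 for *Grm5* and *Grm7* (2 of the 6) and for 4221 of all genes. DESeq2 called 793 of the 9228 genes to which it gave an adjusted p, among them *Grm5* (0.53, adjusted p = 0.0854) and *Grm7* (0.26, adjusted p = 0.0836). Without double-heterozygote replicate 6, *Grm5* also passed in edgeR (0.54, adjusted p = 0.091), in a fit that called 945 of 30552 genes. Without *Nipbl*+/- replicate 1, *Grm5* stood at 0.40 (edgeR adjusted p = 0.522). Within the low set the interaction was 0.69 for *Grm5*, 0.30 for *Grm7* and 0.32 for *Grm3* (edgeR adjusted p = 0.214, 0.268 and 0.303). For *Grm8*, *Grm2* and *Grm4* the interactions were 0.06, -0.14 and -0.16, each with an interval that spans 0.

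Across the 4 genotypes the group means followed 3 orders. *Grm5*, *Grm3* and *Grm7* were highest in WT, then in *Wapl*Δ/+, double-heterozygote and *Nipbl*+/- brains, with the *Wapl*Δ/+ and double-heterozygote means of *Grm7* nearly equal (1102 and 1101). *Grm8* ran from *Wapl*Δ/+ through WT and double-heterozygote to *Nipbl*+/- brains, and *Grm2* and *Grm4* from *Wapl*Δ/+ through WT and *Nipbl*+/- to double-heterozygote brains. In none of the 6 genes did neighbouring genotypes in this order differ at an edgeR adjusted p below 0.10.

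The receptor genes varied together to unlike degrees, with every pair positively correlated. Over the 21 libraries the log2 levels of *Grm3* and *Grm5* had a Pearson correlation of 0.91 (0.83 after removal of the group means), *Grm5* and *Grm7* of 0.85 (0.79) and *Grm2* and *Grm4* of 0.81 (0.73), against 0.32 (0.19) for *Grm4* and *Grm5*, the lowest. The other pairs lay between, among them *Grm3* and *Grm7* at 0.785 (0.802), *Grm3* and *Grm8* at 0.755 (0.461) and *Grm2* and *Grm3* at 0.687 (0.617). These are descriptions over libraries that share genotypes. The genes most like *Grm5* among 17302 were *Slc4a4* (0.991), which encodes a sodium bicarbonate cotransporter, *Frmpd4* (0.987) and *Sphkap* (0.981). Those most like *Grm3* were *Ccdc85a* (0.968), *Atp1b1* (0.960) and *Slc6a11* (0.956), the last a GABA transporter. For *Grm2* they were *Pacsin1* (0.919), *Snph* (0.910) and *Mapk15* (0.902), and for *Grm4* they were *Epha8* (0.908), *Syn1* (0.903) and *Snph* (0.903). *Grm7* was most like *Galnt13* (0.906), *Kcnc2* (0.901) and *Necab1* (0.899), and *Grm8* most like *Ndrg1* (0.877), *Gm17035* (0.866) and *Cbln4* (0.866).

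Lists of genes that act with the receptors, from effectors and scaffolds to glutamate supply, each held genes lower in *Nipbl*+/- brains. Some of the lists also held genes that were higher. In this comparison 6.96% of all tested genes were called lower and 1297 of 30552 higher. Among genes averaging 100 or more counts 12.4% were called lower. Whether a list differed from these shares was not tested. Of 14 Gq effectors of group I receptors, 7 fell and none rose, among them the cation channel gene *Trpc5* (log2 fold change -1.29), the protein kinase C gene *Prkcb* (-0.65) and the calcium release channel gene *Itpr1* (-0.61). *Trpc5* was the least abundant of these, with 30 to 166 counts per library. The alpha subunit genes *Gnaq* and *Gna11* themselves stood at -0.09 and 0.03 (edgeR adjusted p = 0.222 and 0.776). The list median was -0.13, beside -0.01 over all tested genes.

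Of the 13 tested postsynaptic scaffold genes of group I receptors, 4 fell and 1 rose. The lower genes included *Dlgap2* (-0.53), *Homer2* (-0.52) and *Dlgap1* (-0.29), and *Homer3* rose (0.18). Homer proteins bind the tail of group I receptors and link them to calcium release channels. The scaffold genes *Shank1*, *Shank2*, *Shank3* and *Dlg4* stood at 0.12, -0.01, 0.000304 and 0.05 and did not pass, and the list median was -0.01.

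Of 17 genes for Gi/o proteins and effectors of group II and III receptors, 7 fell and 1 rose. Adenylyl cyclase genes moved in both directions, with *Adcy1* (-0.66) and *Adcy2* (-0.39) lower and *Adcy6* (0.18) higher, and the potassium channel gene *Kcnj6*, whose product opens on release of G protein beta-gamma subunits, was lower (-0.38). The list median was -0.05. Of 16 regulators of G protein signalling, receptor kinases and arrestins, 7 fell and 2 rose, with *Rgs9* (-0.56), *Rgs14* (-0.55) and *Rgs6* (-0.33) lower, *Rgs8* (0.22) and the kinase gene *Grk6* (0.11) higher, and a list median of -0.13. *Rgs14* rested on 20 to 50 counts per library.

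Of 15 synaptic partners of group III receptors 3 fell, among them the liprin gene *Ppfia2* (-0.25) and the calmodulin gene *Calm2* (-0.16), and 1 rose, *Pick1* (0.15), which encodes a PDZ protein that binds the *Grm7* product (list median -0.09). Of 14 genes of glutamate supply and clearance 5 fell and none rose, including the astrocyte glutamate transporter gene *Slc1a3* (-0.37), the glutamine synthetase gene *Glul* (-0.25) and the neuronal transporter gene *Slc1a1* (-0.17), with a list median of -0.15.

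**Figure D4:**
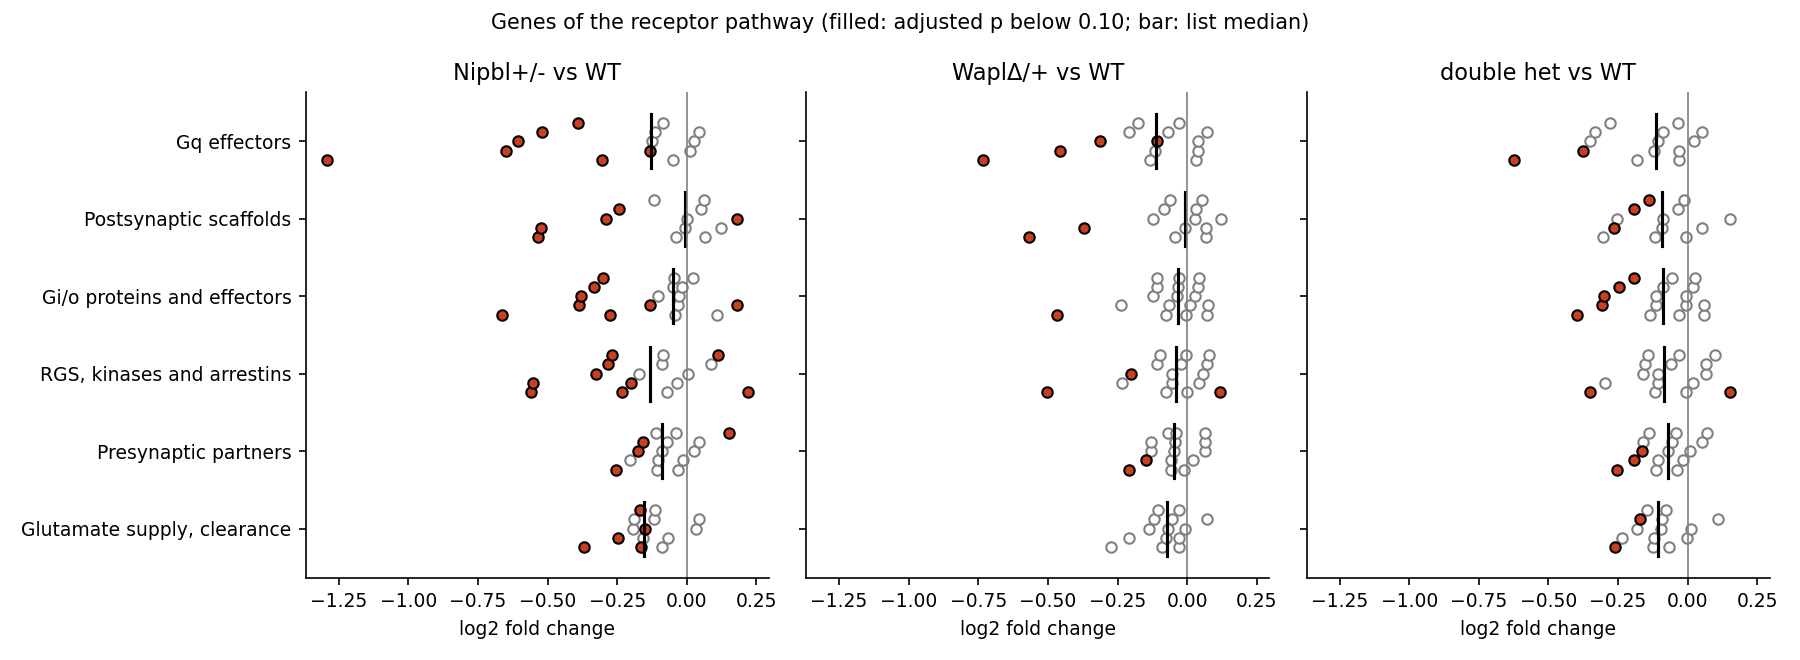
Log2 fold change against WT (x axis) of each tested gene (points) of 6 receptor pathway lists (rows) in *Nipbl*+/-, *Wapl*Δ/+ and double-heterozygote brains (panels), with black bars at list medians. Filled points passed an adjusted p of 0.10 in edgeR's test, 7 of the 14 Gq effectors in *Nipbl*+/-, 4 in *Wapl*Δ/+ and 2 in double-heterozygote brains, all of them lower than in WT.

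In *Wapl*Δ/+ brains 1.45% of all tested genes, and 2.29% of those averaging 100 or more counts, were called lower. Of all 30552 tested genes 235 were called higher. Among the listed genes 4 Gq effectors fell, including *Trpc5* (-0.73), *Prkcb* (-0.46) and *Itpr1* (-0.31). The scaffold genes *Dlgap2* (-0.57) and *Homer2* (-0.37) and the cyclase gene *Adcy1* (-0.47) fell too. Of the regulators *Rgs9* (-0.50) and *Grk3* (-0.20) fell and *Grk6* (0.12) rose, of the synaptic partners the calcium channel genes *Cacna1b* (-0.21) and *Cacna1a* (-0.15) fell, and 0 of 14 genes of glutamate supply passed.

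In double heterozygotes 2.46% of all tested genes, and 4.61% of those averaging 100 or more counts, were called lower. Of all 30552 tested genes 248 were called higher. Among the listed genes the Gq effectors *Trpc5* (-0.62) and *Plcb1* (-0.38) fell, the latter a phospholipase C gene. So did 3 scaffold genes (*Dlgap1* -0.26, *Homer1* -0.19 and *Ncdn* -0.14) and 5 Gi/o genes led by *Adcy1* (-0.40), *Kcnj6* (-0.31) and *Adcy2* (-0.30). *Rgs6* fell (-0.35) and *Rgs8* rose (0.15). The synaptic partners *Elfn1* (-0.25), *Ppfia4* (-0.19) and *Ppfia2* (-0.16) of group III receptors fell, as did *Slc1a3* (-0.26) and *Glul* (-0.17). Against *Nipbl*+/- brains none of the listed genes passed in double heterozygotes, and against *Wapl*Δ/+ brains only *Rgs6* (-0.35) and *Adcy8* (-0.23) did, both lower. Of all tested genes 0.00655% were called in either direction against *Nipbl*+/- brains and 0.812% lower against *Wapl*Δ/+ brains.

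Markers of several cell types moved with the receptor genes. Of all tested genes 6.96%, 1.45% and 2.46% were called lower in *Nipbl*+/-, *Wapl*Δ/+ and double-heterozygote brains against WT. Called higher were 1297, 235 and 248 of 30552. Among genes averaging 100 or more counts 12.4%, 2.29% and 4.61% were called lower. Whether a marker list differed from these shares was not tested. In *Nipbl*+/- brains 7 of 10 astrocyte markers fell, among them *Gpr37l1* (-1.61, from 12 to 109 counts per library), the water channel gene *Aqp4* (-0.79) and *Slc4a4* (-0.79), and *Fgfr3* rose (0.12). The summed level of the 10 markers was 502 to 548 CPM (reads scaled to library size) in WT, 379 to 477 in *Nipbl*+/-, 409 to 502 in double-heterozygote and 429 to 563 in *Wapl*Δ/+ libraries. No astrocyte marker was at 0 in any library. The summed level was thus 79.3% of WT in *Nipbl*+/- and 85.6% in double-heterozygote brains, where 5 of 10 markers fell, and 93.8% in *Wapl*Δ/+ brains, where 0 of 10 passed. The part of this shift in the lower *Grm3* and *Grm5* levels was not tested.

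**Figure D5:**
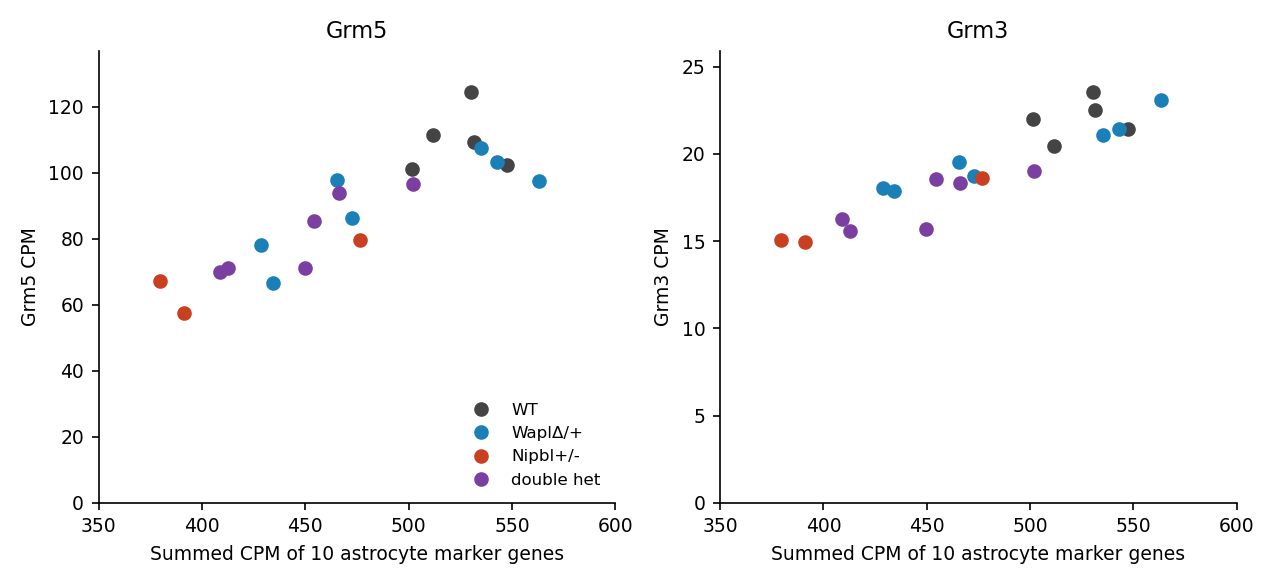
Level of *Grm5* and *Grm3* in CPM (y axes, from 0) against the summed CPM of 10 astrocyte marker genes (x axis, from 350) in each of the 21 libraries (points), coloured by genotype. Libraries with low marker sums, such as 2 of the 3 *Nipbl*+/- libraries, also have low *Grm3* and *Grm5*, and the third *Nipbl*+/- library, replicate 2, is the highest of its group on each axis.

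Oligodendrocyte lineage markers summed to 296 to 321 CPM in WT and 229 to 283 in *Nipbl*+/- libraries (80.7% of WT), with 5 of 8 lower, and 6 of 8 were lower in double heterozygotes. Markers of maturing neurons summed to 1868 to 1999 CPM in WT and 1648 to 1988 in *Nipbl*+/- libraries (90.7% of WT), with 5 of 10 lower in *Nipbl*+/- and 4 of 10 in double heterozygotes. General neuronal markers stood at 94.4% of WT in *Nipbl*+/- brains with 4 of 10 lower, and 1 of 10 was lower in double heterozygotes. Progenitor markers, by contrast, summed to 100.4% of WT in *Nipbl*+/- brains, with 4 of 11 higher and 1 lower. None of the markers in these lists was at 0 in any library, and their part in the receptor results was not tested.

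Of the remaining lists in *Nipbl*+/- brains, 4 of 7 microglial and 2 of 8 cerebellar granule cell markers were lower, 2 of 6 endothelial, 1 of 5 choroid plexus and 1 of 6 meningeal markers were higher, and no blood or pituitary marker passed. In *Wapl*Δ/+ brains 3 of 6 meningeal and 1 of 6 endothelial markers were higher and 1 of 8 cerebellar and 1 of 5 pituitary markers lower, and in double heterozygotes 1 of 11 progenitor and 1 of 5 choroid plexus markers were higher and 1 of 7 microglial markers lower. Between double-heterozygote and *Wapl*Δ/+ brains 3 of 8 oligodendrocyte lineage markers and 1 marker each of astrocytes, neurons and microglia were lower and 1 pituitary marker higher, and between double-heterozygote and *Nipbl*+/- brains no marker passed. Many of these counts are of 1 or 2 markers. Their difference from the shares over all tested genes given above was not tested. The pituitary genes *Gh*, *Prl*, *Cga* and *Pou1f1* were at 0 in part of the libraries. Summed pituitary markers reached 87.3 CPM in WT replicate 2 and 0.79 to 1.25 CPM in the other WT libraries. They ran from 1.16 to 2.55 CPM in *Wapl*Δ/+ libraries and reached 9.80 and 38.3 CPM in double-heterozygote replicates 5 and 6. Cerebellar granule cell markers, of interest for *Grm4*, summed to 90.5% of WT in *Nipbl*+/- and 95.6% in double-heterozygote brains. The sum did not describe the whole list, whose most abundant gene was *Reln* with 6096 to 11084 counts per library. The list median log2 fold change was 0.02 in *Nipbl*+/- brains, with 4 of 8 genes below 0. In double heterozygotes it was 0.11, with 2 of 8 below 0.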

How the data were processed

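Each library came from the whole brain of a female E17.5 embryo. The authors deposited raw gene-level counts. They trimmed 101 bp paired-end reads with cutadapt 2.4, mapped them to GRCm38.p6 with STAR 2.5.3a, counted them with featureCounts (Subread 1.6.4) and checked quality with MultiQC 1.9. A further *Nipbl*+/- library was not analysed here.

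Counts were scaled by TMM and tested in R 4.3.3 with edgeR 4.0.16 (quasi-likelihood, each comparison on its own libraries, the interaction on all 21). Genes whose normalized counts added up to 10 or more across the 21 libraries were kept, and a Benjamini-Hochberg adjusted p below 0.10 was a call. DESeq2 1.42.0 was an alternative. The test was checked on simulated counts for the comparisons with WT only. The simulation gave every gene the same dispersion between libraries, so it does not cover the differences between the real libraries. Over all genes, libraries of a group differed by more than counting noise. Replicate numbers did not pair libraries.

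The 6 genes and all lists were chosen with earlier results of these data known. List examples are up to 3 called genes per direction with the largest change and a mean of at least 1 CPM, and *Gnaq*, *Gna11*, the *Shank* genes, *Dlg4* and *Gh*, *Prl*, *Cga* and *Pou1f1* were named after their values were seen. 1 listed scaffold gene was not matched. RefSeq positions were matched by symbol. Some genes that this rule would name are not reported here.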

Additional observations from a re-analysis of the deposited data

Results flagged for a closer look

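*Grm7* in WT had 1 library apart from the rest. WT replicate 1 stood at 1235 normalized counts and the other 4 WT libraries between 1147 and 1163, so the gap to the nearest library was 0.821 of the whole range of the 5, above the limit of Dixon's test at 95%. Of the 18 sets of 4 to 10 libraries examined, 3 groups for each of the 6 genes, this was the only one above its limit, and chance puts about 1 in 20 above it. Without WT replicate 1, *Grm7* was still called in *Nipbl*+/- brains in edgeR's test. The same library had the highest *Grm5* (3917) and *Grm3* (741) of WT.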

How the results depend on the processing

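The 4 calls in *Nipbl*+/- against WT held under all 9 alternatives, and 4 to 6 genes were called when libraries were left out. *Grm5* and *Grm3* in double heterozygotes against WT held except in the high *mt-Nd3* set, chosen after seeing the data, with 0 calls among 4 libraries, and leaving out libraries gave 2 to 4 calls. The count there went from 2 to 3 without the low-count filter (*Grm2* added) and to 3 with the deletion-first libraries only (*Grm8* added). In *Wapl*Δ/+ against WT the count went from 0 to 1 without the low-count filter (*Grm5*), to 2 with a replicate block (*Grm3* and *Grm5*) and to 2 with the deletion-first libraries only, and to 0 to 1 on leaving out libraries. In double heterozygotes against *Nipbl*+/- the replicate block gave 1 call (*Grm5*, 0.29, edgeR adjusted p = 0.0734), and leaving out libraries 0. Against *Wapl*Δ/+, DESeq2 gave 1 (*Grm2*), 1 fit of all 4 groups gave 1 (*Grm8*), and leaving out libraries 0 to 1. For the interaction DESeq2 gave 2 (*Grm5* and *Grm7*), and leaving out libraries 0 to 1. The cause of these changes was not tested. Over all genes, alternatives to the 3422, 677, 1001, 2, 311 and 0 calls of the 6 tests in this order (*Nipbl*+/-, *Wapl*Δ/+ and double heterozygotes against WT, double heterozygotes against *Nipbl*+/- and *Wapl*Δ/+, interaction) gave 1658 to 4058, 7 to 1991, 1 to 1814, 1 to 59, 24 to 626 and 0 to 793 calls. Fits without 1 library are not in these ranges. They gave up to 4788 calls in *Nipbl*+/- and 2504 in double heterozygotes against WT, and up to 945 for the interaction.

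Signs turned only in fold changes that were not called. In *Wapl*Δ/+ against WT these were *Grm2* and *Grm8* with the replicate block (-0.026 and -0.022) and with a term for the *mt-Nd3* set (-0.014 and -0.0025), and *Grm2*, *Grm4* and *Grm8* in the low set (-0.056, -0.044 and -0.034) and with the deletion-first libraries (-0.10, -0.045 and -0.048). In double heterozygotes against *Nipbl*+/- they were *Grm2* with the block (0.0085) and *Grm4* with the term (0.0056), in the low set (0.0026) and with the deletion-first libraries (0.0026). Against *Wapl*Δ/+ it was *Grm7* in 1 fit of all groups (-0.003018). The interaction turned for *Grm2* and *Grm4* in the low set (0.02976 and 0.057) and with the deletion-first libraries (0.076 and 0.056, chosen after seeing the data). On leaving out libraries, *Grm2* and *Grm8* ran from -0.012 to 0.068 and from -0.012 to 0.034 in *Wapl*Δ/+ against WT, *Grm2* and *Grm4* from -0.17 to 0.031 and from -0.069 to 0.051 in double heterozygotes against *Nipbl*+/-, *Grm7* from -0.025 to 0.028 against *Wapl*Δ/+, and *Grm2* from -0.21 to 0.0027 for the interaction. Replicate numbers do not pair the libraries (7 of 25 same-numbered pairs correlated above 0.1, from -0.272 to 0.45, and 6 were best matches). With the block, calls in *Nipbl*+/- and double heterozygotes against WT stayed at 4 and 2, among 1893 and 535 genes called in all. The *Nipbl*+/- group held 3 libraries, and libraries of a genotype differed by more than counting noise over all genes.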
